A study of Homo sapiens with 36 samples.

Results

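CXCL9, CXCL10 and CXCL11 are 3 chemokines that bind the receptor CXCR3. Their rows were taken by Entrez identifier (4283, 3627 and 6373) from a table of 21599 genes measured by RNA sequencing. All 3 were found, and all 3 passed the filter on low values that left 21232 genes for testing. CXCL9 and CXCL11 passed it through their stimulated libraries, as their vehicle values alone (at most 1.97 for CXCL9) would not have. Their genotype differences in vehicle, and the differences of responses, thus rest on vehicle values mostly or wholly below the filter's level of 3.32. The cells were THP-1, a human monocytic leukemia line, differentiated with PMA (100 nM, 72 h), which turns these cells into adherent macrophage-like cells. The 12 groups of 3 libraries were IRG1 KO and WT cells, each given LPS (200 ng/mL) with IFN-γ (200 ng/mL) or vehicle, and each collected at 6, 12 and 24 h. IRG1 is now called ACOD1, and its product is the mitochondrial enzyme by which activated macrophages produce itaconate. How the KO line was made, whether it is a single clone, and whether replicates came from separate cultures are not given in the sources used here, so the tests rest on the spread between these libraries alone, which may be technical.

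These chemokines are small secreted proteins that draw CXCR3-bearing cells, chiefly activated T cells and natural killer cells, into inflamed tissue. Macrophages make them in response to interferon: IFN-γ acts through its receptor and the transcription factor IRF1, while LPS acts through TLR4, NF-κB and the type I interferon loop. CXCL10 was first described as an interferon-induced protein, and CXCL11 is regarded as the ligand with the strongest affinity for CXCR3. The genes are neighbours in a mini-cluster on chromosome 4, apart from the main CXC chemokine cluster on that chromosome.

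Because the 3 genes share a locus and all rose with stimulation, their promoters are shown, as given by RefSeq on GRCh38.p14 (the submitters' processing notes name GRCh37.p5 for the deposited table, so these positions belong to the reference and not to the table). Each sequence runs 5′ to 3′ on the gene's own strand, the minus strand, from 250 bases before the gene's start to 50 bases from it. The windows are chr4:76007460-76007759 for CXCL9, chr4:76023448-76023747 for CXCL10 and chr4:76036021-76036320 for CXCL11. Capitals mark matches to 4 motifs: the core of the interferon regulatory factor site (AANNGAAA), the gamma-activated site, GAS (TTCNNNGAA), the kappa-B consensus, and TATAAA.
CXCL9: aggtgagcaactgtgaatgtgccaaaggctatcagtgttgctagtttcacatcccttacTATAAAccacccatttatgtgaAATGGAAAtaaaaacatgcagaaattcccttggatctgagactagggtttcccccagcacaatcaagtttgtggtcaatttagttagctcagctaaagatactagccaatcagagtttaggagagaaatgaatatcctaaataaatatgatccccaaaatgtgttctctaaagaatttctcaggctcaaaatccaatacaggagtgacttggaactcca
CXCL10: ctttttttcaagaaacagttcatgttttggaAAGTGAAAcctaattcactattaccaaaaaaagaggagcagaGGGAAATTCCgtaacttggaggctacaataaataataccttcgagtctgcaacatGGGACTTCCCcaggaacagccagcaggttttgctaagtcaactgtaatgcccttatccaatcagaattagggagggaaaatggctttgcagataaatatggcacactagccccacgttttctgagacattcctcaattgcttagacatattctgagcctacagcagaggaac
CXCL11: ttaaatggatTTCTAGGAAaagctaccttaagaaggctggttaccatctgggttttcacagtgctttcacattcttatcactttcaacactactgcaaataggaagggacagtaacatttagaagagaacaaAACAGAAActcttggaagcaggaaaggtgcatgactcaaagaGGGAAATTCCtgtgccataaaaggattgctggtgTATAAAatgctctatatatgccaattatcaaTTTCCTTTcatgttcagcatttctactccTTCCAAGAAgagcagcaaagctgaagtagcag

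All motifs were searched on both strands except TATAAA, which was searched on the gene's strand. The IRF core was in all 3 windows: 169 to 162 bases before the start of CXCL9, 219 to 212 before that of CXCL10, and 118 to 111 and 11 to 4 before that of CXCL11. The kappa-B consensus was matched at 177 to 168 and 122 to 113 bases before the start of CXCL10 and at 76 to 67 before that of CXCL11. GAS letters were found in the CXCL11 window only, 240 to 232 bases before the start and at bases 19 to 27 after it, and TATAAA in those of CXCL9 and CXCL11. No match overlapped a match to another motif. Among 35116 RefSeq promoter windows of this length, 22.8% held the IRF core, 7.66% GAS, 11.3% the kappa-B consensus and 7.33% TATAAA, and 1.61% held both the IRF core and the kappa-B consensus, as CXCL10 and CXCL11 do. These matches are letters in a window of sequence, no binding was measured, and a window without a match says nothing about the factor.

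**Figure D1:**
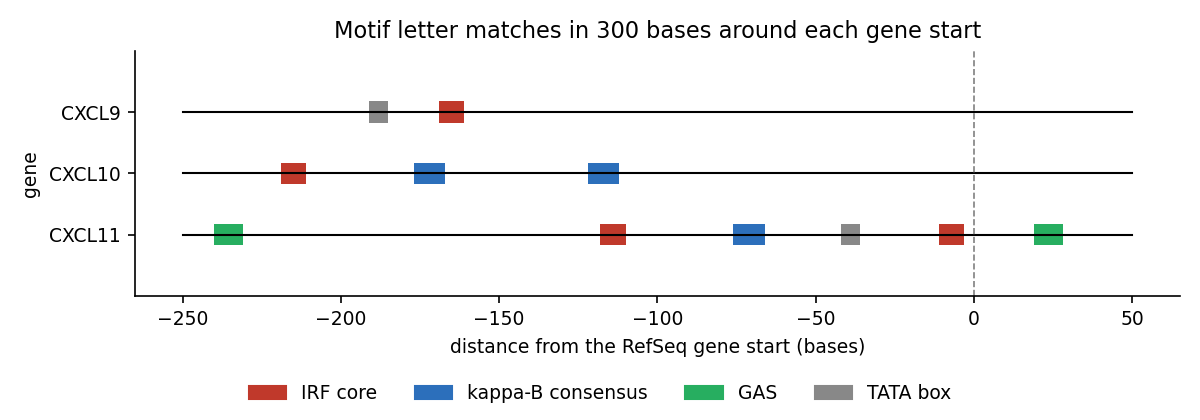
Positions of motif matches (coloured blocks) along the 300 bases around the RefSeq start of each gene (horizontal axis, bases from the start, dashed line at the start). Each of the 3 windows holds an IRF core, CXCL10 has 2 kappa-B matches and CXCL11 has 1.

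Values are the log2 values as deposited, which the authors' own name for the table calls log2 counts. The depth of each library is unknown. The columns share almost the same set of values in a different order: at 88.0% of the ranks, the values of the 36 libraries lay within 0.1 of each other, and every library had the same highest value (16.75) and the same lowest value (-0.34). No value in any library stood above 16.75, and near this ceiling a difference between values is a difference of places: the median value was 16.47 at place 2, 16.05 at place 5, 15.71 at place 10 and 15.25 at place 20. At the other end, each library had a block of 293 to 831 genes tied at 0 to 0.02, and 1 to 16 genes lay below that block. In vehicle libraries CXCL9 lay below it in 9 of 18, CXCL10 in 4 of 18 and CXCL11 in 3 of 18. A value around 0 was thus at the floor of the scale, where a log2 difference is not a ratio of molecules, and a linear fold is printed only if the means of both groups were at least 3.32 (log2 of 10).

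ACOD1, the targeted gene, was at 7.98 to 10.22 in KO stimulated libraries (median 8.49, n = 9), against 9.20 to 12.76 in WT stimulated libraries (median 11.11, n = 9). It was at 0.00 to 0.33 in KO vehicle libraries and at 0.12 to 0.86 in WT vehicle libraries. Its mean over the 3 times was lower in KO than in WT stimulated cells, with a log2 difference of -2.49 ± 0.27 (SE; adjusted p = 1.24e-07 by limma with Benjamini-Hochberg adjustment over all genes tested, as for every adjusted p below). The 2 ranges overlapped, and ACOD1 transcript rose with stimulation in the libraries labelled KO (log2 8.43 to 8.77); which part of the gene was altered is not given in the sources used here.

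All 10 macrophage markers were measured above the floor in every library, among them CD68 (10.45 to 13.53) and SPI1 (9.37 to 11.84). Their summed level was lower in the KO line, at log2 12.75 to 13.65 in KO stimulated against 13.60 to 14.54 in WT stimulated libraries, and 13.05 to 13.78 in KO vehicle against 14.04 to 15.32 in WT vehicle libraries. The sum is of linear values, so the highest genes weigh most. At an adjusted p below 0.05, 5 of the 10 were lower in KO stimulated cells (10.4% of all genes). In vehicle 5 were lower (12% of all genes) and 1 was higher (11.4%). The 7 markers of other cell types with a row summed to log2 6.70 to 7.82 in KO stimulated against 7.88 to 9.32 in WT stimulated libraries, and 7.65 to 8.19 in KO vehicle against 8.26 to 9.40 in WT vehicle libraries. Of these, the T cell marker CD2 was below 1 in 27 of 36 libraries and the natural killer cell marker NCR1 in 20 of 36. The part of either marker list in the genotype differences below was not tested.

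With stimulation all 3 ligands went to the upper end of the scale in both genotypes, while vehicle values were at or near its floor in KO cells and low in WT cells. CXCL9 was at 16.75, 15.41 and 16.47 in KO stimulated libraries at 6 h, then 16.75, 16.75 and 16.47 at 12 h, then 16.05, 14.67 and 15.76 at 24 h. In WT stimulated libraries CXCL9 was at 14.96, 14.62 and 14.64 at 6 h, then 15.37, 16.05 and 15.41 at 12 h, then 15.10, 14.89 and 15.19 at 24 h. All 3 KO libraries were above all 3 WT libraries at 6 and at 12 h, whereas at 24 h the KO library of replicate 2 fell below the WT range. The share of all genes whose KO and WT libraries separate in this way was not counted. Such separation is description only, here and below. In KO vehicle libraries CXCL9 was at 0.14, -0.24 and 0.01 at 6 h, then -0.17, -0.17 and -0.34 at 12 h, then -0.17, -0.02 and 0.09 at 24 h. In WT vehicle libraries it was at 0.47, 1.20 and -0.24 at 6 h, then 0.74, 1.97 and 1.01 at 12 h, then -0.34, -0.24 and 1.31 at 24 h. No vehicle library of either genotype reached 2, so that basal CXCL9 was at the floor in KO cells and little above it in WT cells.

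CXCL10 was at 16.12, 14.89 and 16.20 in KO stimulated libraries at 6 h, then 15.65, 15.90 and 15.49 at 12 h, then 15.41, 15.29 and 15.65 at 24 h. WT stimulated libraries had CXCL10 at 15.49, 15.19 and 15.19 at 6 h, then 15.76, 15.60 and 15.45 at 12 h, then 15.45, 14.70 and 14.80 at 24 h. These ranges overlapped at every time. In vehicle the order was different: KO libraries had CXCL10 at -0.24, 1.83 and 0.93 at 6 h, then -0.34, 2.96 and -0.07 at 12 h, then -0.09, 2.38 and 0.06 at 24 h. WT vehicle libraries had it at 2.86, 4.59 and 4.95 at 6 h, then 2.22, 5.01 and 4.00 at 12 h, then 2.76, 4.42 and 3.49 at 24 h. CXCL10 thus had a low basal level in WT cells, and the KO range lay below the WT range at 6 and 24 h and overlapped it at 12 h through the KO library of replicate 2. In bulk RNA, fewer cells with the transcript and less transcript per cell cannot be told apart.

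CXCL11 was at 14.62, 12.76 and 14.85 in KO stimulated libraries at 6 h, then 14.39, 13.59 and 14.44 at 12 h, then 13.70, 11.58 and 14.25 at 24 h. In WT stimulated libraries CXCL11 was at 13.82, 13.66 and 13.84 at 6 h, then 14.51, 12.95 and 14.56 at 12 h, then 13.92, 12.03 and 13.01 at 24 h. The library of replicate 2 was the lowest of its group in all 6 stimulated groups, and the genotypes overlapped at every time. KO vehicle libraries had CXCL11 at 0.07, 1.06 and 0.04 at 6 h, then -0.24, 1.95 and 0.05 at 12 h, then -0.24, 0.68 and -0.34 at 24 h. WT vehicle libraries had it at 1.16, 3.40 and 2.84 at 6 h, then 1.57, 4.20 and 2.72 at 12 h, then 2.41, 3.26 and 2.22 at 24 h. Here the library of replicate 2 was the highest in all 6 vehicle groups, and the genotypes did not overlap at 6 and 24 h.

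**Figure D2:**
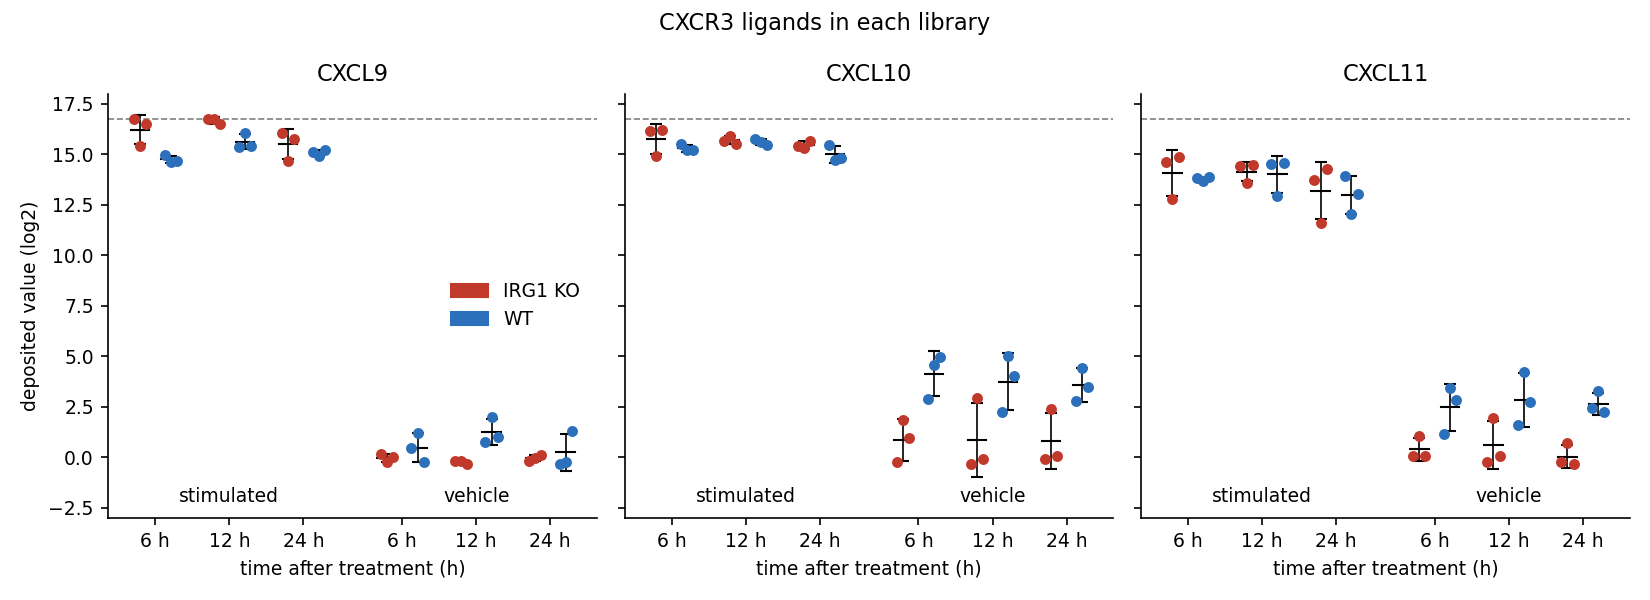
Deposited log2 value of each ligand (vertical axis) in each of the 36 libraries by time, with KO (red) left of WT (blue) and stimulated left of vehicle; bars are the mean ± SD of 3 libraries, and the dashed line is the highest value of every library, 16.75. Stimulated libraries lie between 11.58 and 16.75, vehicle libraries between -0.34 and 5.01, and the genotypes are furthest apart in vehicle for CXCL10 and CXCL11.

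The rise with stimulation was called for all 3 ligands in all 6 comparisons of stimulated with vehicle cells. CXCL9 and CXCL11 entered the test through their stimulated libraries, so the filter itself favoured a rise of these genes. Their calls were the same without the filter. Among all genes tested, 16.2%, 15.5% and 17.3% were called higher in KO cells at 6, 12 and 24 h, and 15.1%, 16.8% and 20.2% in WT cells. In KO cells the log2 change was 16.24, 16.88 and 15.53 for CXCL9 (SE 0.40), 14.90, 14.83 and 14.67 for CXCL10 (SE 0.73), and 13.69, 13.55 and 13.14 for CXCL11 (SE 0.72). They held places 1, 2 and 3 among the rises of all 21232 genes at each of the 3 times in KO cells. In WT cells the log2 change was 14.26, 14.37 and 14.82 for CXCL9, 11.16, 11.86 and 11.42 for CXCL10, and 11.31, 11.18 and 10.36 for CXCL11. CXCL9 was first among the rises at each time in WT cells too, with CXCL10 at places 5, 3 and 3 and CXCL11 at places 4, 5 and 6. The adjusted p of these 18 changes was 3.88e-12 or less. A linear fold could be given only for CXCL10 in WT cells, where it was 2290 at 6 h, 3721 at 12 h and 2747 at 24 h.

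CXCL9 was the highest gene of the whole library in 3 of 9 KO stimulated libraries and in none of 9 WT stimulated libraries, counting each row by its value and not per length. In KO stimulated libraries it stood at places 1, 16 and 2 at 6 h, then 1, 1 and 2 at 12 h, then 5, 36 and 9 at 24 h. In WT stimulated libraries it stood at places 27, 38 and 37 at 6 h, then 17, 5 and 16 at 12 h, then 23, 29 and 21 at 24 h. Where CXCL9 was at place 1, its value was the ceiling itself. CXCL10 ranged from place 3 to 29 in KO stimulated libraries (median 11) and from 9 to 35 in WT stimulated libraries (median 15). CXCL11 ranged from place 30 to 316 in KO (median 53) and from 40 to 235 in WT stimulated libraries (median 72). Per kilobase of exon (GENCODE 29 lengths of 2.74, 1.18 and 1.91 kb for CXCL9, CXCL10 and CXCL11), the level at 12 h was log2 15.20 ± 0.16 for CXCL9, 15.45 ± 0.21 for CXCL10 and 13.21 ± 0.48 for CXCL11 in KO stimulated cells (SD, n = 3). In WT stimulated cells at 12 h it was 14.15 ± 0.38 for CXCL9, 15.37 ± 0.16 for CXCL10 and 13.08 ± 0.92 for CXCL11. On this per-length scale CXCL10 was the highest of the 3 at 12 h on average in both genotypes. In KO cells this scale cannot order CXCL9 and CXCL10, because CXCL9 stood at or next to the ceiling (places 1, 1 and 2). Dividing by length also takes the deposited values as not already scaled by length, which is not given in the sources used here.

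**Figure D3:**
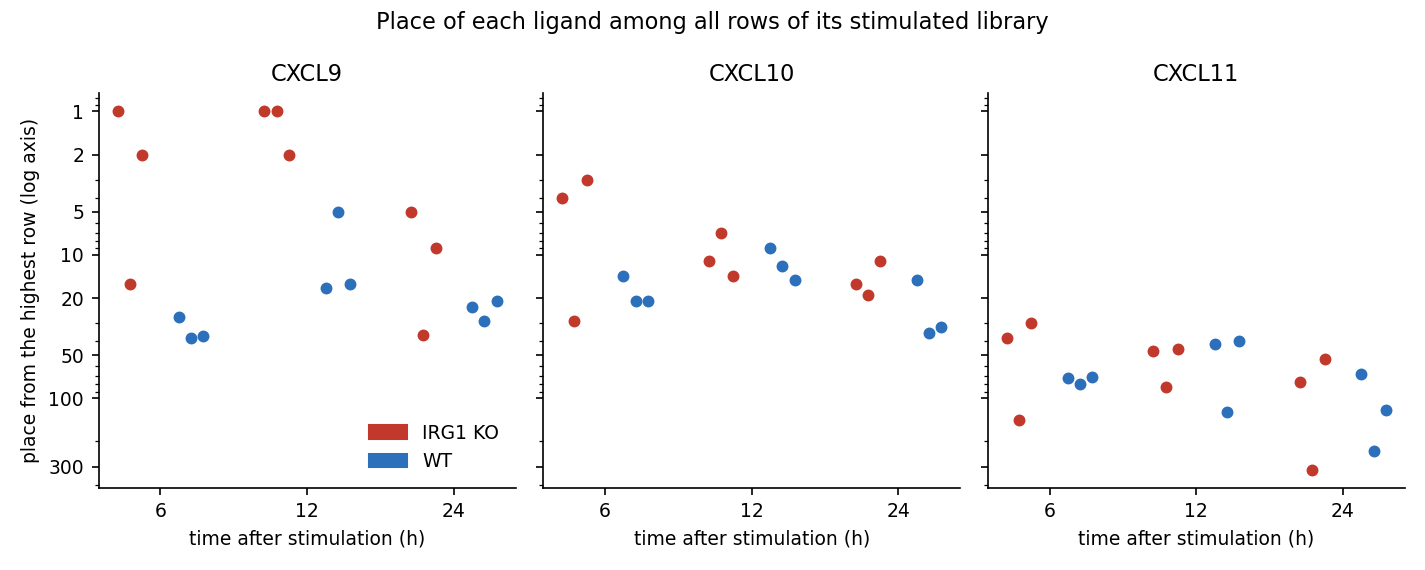
Place of each ligand among all 21599 rows of its library (vertical axis, log scale, 1 is the highest row) in the stimulated libraries at 6, 12 and 24 h, with KO (red) left of WT (blue). CXCL9 is at place 1 in 3 KO libraries, and its best place in a WT library is 5.

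Basal expression was lower in KO than in WT vehicle cells for all 3 ligands when the 3 times were averaged. Of all genes tested, 12% were called lower and 11.4% higher in that comparison. CXCL10 had a log2 difference of -2.99 ± 0.42 (SE; adjusted p = 3.90e-06), and CXCL11 one of -2.31 ± 0.41 (SE; adjusted p = 1.14e-04). The KO values of both were mostly at or near the floor (medians 0.06 and 0.05, n = 9 each). The sizes of these differences, and of the differences of responses built on them, are therefore limited by the floor. CXCL9 differed by -0.75 ± 0.23 (SE; adjusted p = 0.0163), between values that are all at or near the floor. With 5 added to every linear value before taking logs, which damps differences between low values, the CXCL9 difference shrank to -0.18 and was not called (adjusted p = 0.468), while those of CXCL10 and CXCL11 were still called. Without the replicate 2 libraries, chosen after seeing the data, it was -0.57 (adjusted p = 0.0588).

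At single times, CXCL10 was called lower in KO vehicle cells at 6 h (log2 -3.29, adjusted p = 0.00379), 12 h (-2.90, adjusted p = 0.0150) and 24 h (-2.78, adjusted p = 0.0251). The shares of all genes called lower at these times were 3.91%, 2.34% and 1.75%. CXCL11 was called lower at 24 h (-2.59, adjusted p = 0.0341) but not at 6 h (-2.08, adjusted p = 0.0716) or 12 h (-2.24, adjusted p = 0.0676). CXCL9 was called lower at 12 h (-1.47, adjusted p = 0.0249), and its differences of -0.50 at 6 h and -0.28 at 24 h were not called. With 5 added to the linear values, the calls of CXCL9 at 12 h (-0.35, adjusted p = 0.649) and of CXCL10 and CXCL11 at 24 h (-1.26 and -0.90, adjusted p = 0.0906 and 0.521) were lost. The spread behind these tests came from all 12 groups: with only the 2 groups compared in the model, CXCL10 was called at none of the times (adjusted p = 0.0592, 0.193 and 0.129 at 6, 12 and 24 h), and neither was CXCL9 at 12 h (adjusted p = 0.111). Calls also ended without single libraries: at 12 h those of CXCL9 and CXCL10 without KO replicate 1, KO replicate 3 or WT replicate 2, and that of CXCL10 without WT replicate 3. At 24 h the calls of CXCL10 and CXCL11 ended without KO replicate 1, KO replicate 3, WT replicate 2 or WT replicate 3, and that of CXCL11 also without WT replicate 1. Over all libraries left out in turn, including those that kept the call, CXCL10 lay between -3.95 and -2.26 at 12 h and between -3.57 and -2.34 at 24 h. In the same way CXCL11 lay between -2.92 and -2.28 at 24 h. CXCL11 was called at 6 h without WT replicate 1 (-2.73) and at 12 h without WT replicate 1 (-2.87) or KO replicate 2 (-2.92).

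In stimulated cells, CXCL9 was higher in KO than in WT, and no difference was called for CXCL10 or CXCL11. Averaged over the 3 times, CXCL9 was higher by a log2 difference of 0.98 ± 0.23 (SE; adjusted p = 0.00241), in a comparison where 12.2% of all genes were called higher and 10.4% lower. CXCL10 differed by 0.33 ± 0.42 (SE; 95% interval -0.53 to 1.19; adjusted p = 0.630), and CXCL11 by 0.21 ± 0.41 (SE; 95% interval -0.64 to 1.06; adjusted p = 0.772). The upper ends of both intervals lie above the CXCL9 difference, so equal levels of CXCL10 and CXCL11 were not shown. The ceiling of the scale bears on CXCL9 above all, since 3 of its 9 KO values were at the ceiling.

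By time, CXCL9 was higher in KO stimulated cells at 6 h (16.21 ± 0.71 against 14.74 ± 0.19 in WT; SD, n = 3 each), a log2 difference of 1.47 (adjusted p = 0.0181) with KO replicate 1 at the ceiling. At 12 h it was at 16.65 ± 0.16 in KO and 15.61 ± 0.38 in WT stimulated cells, a log2 difference of 1.05 that was not called (adjusted p = 0.153). KO replicates 1 and 2 were at the ceiling at 12 h, so this difference and the KO spread were limited from above. At 24 h it was at 15.49 ± 0.72 in KO and 15.06 ± 0.15 in WT stimulated cells (difference 0.43, adjusted p = 0.573). CXCL10 and CXCL11 were called at none of the 3 times by limma, and 0 of these 6 differences had an unadjusted p below 0.05. The shares of all genes called higher were 4.86%, 1.78% and 3.41% at 6, 12 and 24 h. The 6 h call was lost without KO replicate 1 (1.20, adjusted p = 0.0844), without KO replicate 3 (1.34, adjusted p = 0.0579), without WT replicate 2 (1.41, adjusted p = 0.0646), and with only the 6 libraries compared in the model (adjusted p = 0.205). Ordered by mean, the 6 stimulated groups ran for CXCL9 from KO 12 h over KO 6 h, WT 12 h, KO 24 h and WT 24 h to WT 6 h, and each group's range overlapped that of the next.

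The response to stimulation was larger in KO than in WT cells for all 3 ligands when averaged over the 3 times, a comparison in which 3.32% of all genes were called higher and 2.92% lower. The KO minus WT difference of the log2 response was 1.73 ± 0.32 for CXCL9 (SE; adjusted p = 0.00110), 3.32 ± 0.59 for CXCL10 (adjusted p = 7.48e-04) and 2.51 ± 0.59 for CXCL11 (adjusted p = 0.00804). Each is the difference in stimulated cells minus the difference in vehicle cells, and the parts were unequal. For CXCL10 the vehicle part was -2.99 and the stimulated part 0.33, and for CXCL11 they were -2.31 and 0.21, so most of the difference in response was the difference in vehicle. For CXCL9 the vehicle part was -0.75 and the stimulated part 0.98. With 5 added to the linear values, the CXCL11 difference fell to 1.09 and was not called (adjusted p = 0.159), and those of CXCL9 and CXCL10 were still called.

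At single times limma called this difference for none of the 3 ligands, although 8 of the 9 values had an unadjusted p below 0.05. The share of all genes with such a p at single times was not counted. For the mean over the times, 2333 of the 21232 genes tested were higher and 1853 lower at an unadjusted p below 0.05. Few genes were called: 0.452% of all genes at 6 h, 0.16% at 12 h and 0.433% at 24 h. The values were 1.97, 2.51 and 0.71 for CXCL9 at 6, 12 and 24 h, 3.74, 2.97 and 3.24 for CXCL10, and 2.38, 2.37 and 2.78 for CXCL11. With the replicate number as a block, CXCL10 passed at 6 h (adjusted p = 0.0434) and CXCL9 at 12 h (adjusted p = 0.0416). Without single libraries, calls were gained for CXCL9 at 6 h (2.37 without KO stimulated replicate 2), for CXCL9 at 12 h (2.73 without WT stimulated replicate 2) and for CXCL10 at 12 h (4.03 without KO vehicle replicate 2).

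**Figure D4:**
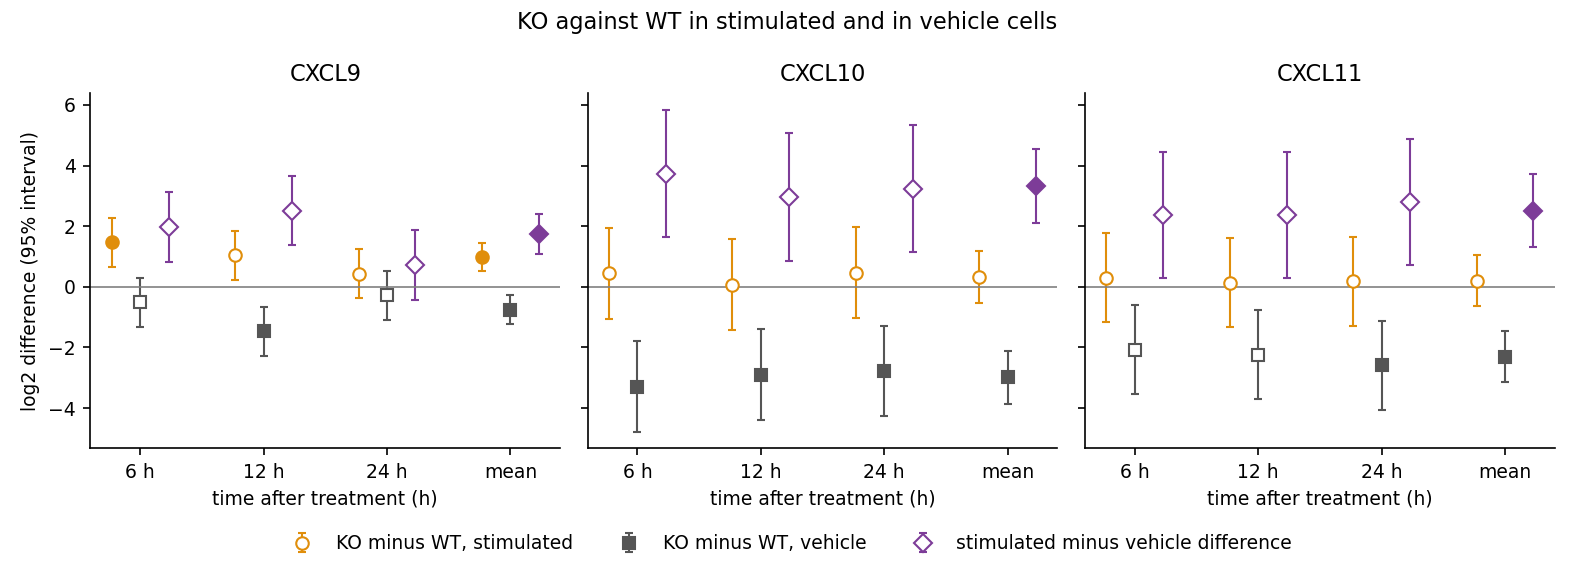
KO minus WT log2 difference (vertical axis, with 95% interval from limma) in stimulated cells (orange circles), in vehicle cells (grey squares), and the stimulated minus the vehicle difference (purple diamonds), at each time and for the mean of times; filled symbols passed an adjusted p of 0.05. CXCL10 and CXCL11 lie near 0 in stimulated cells and at -2.99 and -2.31 in vehicle for the mean of times, whereas CXCL9 is at 0.98 and -0.75.

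Within a library, the balance between ligands was compared directly. CXCL9 minus CXCL10 averaged 0.49 in KO stimulated libraries (range -0.62 to 1.09, n = 9) and -0.16 in WT stimulated libraries (range -0.58 to 0.44, n = 9), on the log2 scale and not per length. The difference of 0.65 had p = 0.0095 by a two-sided exact permutation test in which genotype was permuted within each time (8000 regroupings, smallest possible p 0.00025), or 0.0285 adjusted over the 3 pairs tested. At 6 and at 12 h the KO libraries were all above the WT libraries, and at 24 h KO replicate 2 (-0.62) was the lowest of the 6. CXCL9 minus CXCL11 averaged 2.32 in KO and 1.55 in WT stimulated libraries (difference 0.78, exact permutation p = 0.0518, adjusted p = 0.0776), and CXCL10 minus CXCL11 averaged 1.83 in KO and 1.71 in WT (difference 0.12, exact permutation p = 0.720). When genotype was instead swapped within like-numbered pairs, the CXCL9 minus CXCL10 difference had an adjusted p of 0.0586 by the exact permutation test. The call was also lost without KO replicate 1 at 12 h, without KO replicate 1 at 24 h, or without WT replicate 1 at 24 h (adjusted p = 0.0503, 0.0922 and 0.0803, exact permutation), with the difference between 0.55 and 0.76 over all libraries left out. CXCL9 minus CXCL11 passed the test without WT replicate 2 at 12 h (1.02), WT replicate 2 at 24 h (0.91) or KO replicate 3 at 24 h (0.91).

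No change between 24 and 6 h was called by limma for any of the 3 ligands in any genotype and treatment, and 0 of the 15 values tested, KO minus WT included, had an unadjusted p below 0.05. The shares of all genes called in either direction were 27.5% in KO stimulated, 22.8% in WT stimulated, 0.834% in KO vehicle and 0.0895% in WT vehicle cells. In stimulated cells, CXCL9 at 24 h minus 6 h was -0.71 ± 0.40 in KO and 0.32 ± 0.40 in WT (SE). CXCL10 was -0.29 ± 0.73 in KO and -0.31 ± 0.73 in WT, and CXCL11 was -0.90 ± 0.72 in KO and -0.79 ± 0.72 in WT. The KO minus WT difference of this change was -1.04 for CXCL9 (95% interval -2.19 to 0.11; adjusted p = 0.382), and 0.683% of all genes were called for it.

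The receptor CXCR3 was itself higher in KO than in WT stimulated cells. It was at 3.05 to 7.26 in KO stimulated libraries (median 5.24, n = 9) and at 1.57 to 5.79 in WT stimulated libraries (median 3.42, n = 9), ranges that overlapped. The mean difference over the times was 1.81 ± 0.32 (SE; adjusted p = 1.35e-04), against -0.47 ± 0.32 in vehicle (adjusted p = 0.322). CXCR3 rose with stimulation in KO cells at 6 h (log2 2.66) and 12 h (2.26), and fell in WT cells at 24 h (-1.81, adjusted p = 0.00852). Of the 9 receptors and binding partners tested, 1 was higher and 2 were lower in KO stimulated cells, and 0 were higher (1 at an unadjusted p below 0.05) and 1 was lower in vehicle. The lower ones were MMP9, a protease that cleaves chemokines (-4.17 in stimulated and -4.13 in vehicle cells), and, in stimulated cells, ANPEP, an aminopeptidase (-0.55). In the same comparisons 12.2% of all genes were higher and 10.4% lower in stimulated cells, and 11.4% higher and 12% lower in vehicle cells, so that counts of 0 to 2 among 9 genes do not set the list apart. Median differences of this list were -0.55 in stimulated and -0.43 in vehicle cells, against 0.02 and -0.03 over all genes tested.

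Genes upstream of the ligands were compared in the same way, against shares of all genes of 12.2% higher and 10.4% lower in stimulated cells and 11.4% higher and 12% lower in vehicle cells. Of 11 genes of interferon-gamma signalling, 2 were higher and 1 lower in KO stimulated cells: the transcription factors IRF8 (1.15) and IRF1 (0.38) were higher, and SOCS3, an inhibitor of cytokine signalling, was lower (-1.07). In vehicle 1 was higher, IRF1 (0.63), and 4 were lower, among them SOCS3 (-1.10) and IFNGR2, a chain of the IFN-γ receptor (-0.46). Of 12 genes of TLR4 and NF-κB signalling, 2 were higher in KO stimulated cells, the NF-κB subunits NFKB1 (0.64) and RELB (0.63), and none was lower (1 at an unadjusted p below 0.05). In vehicle none was higher (0 at an unadjusted p below 0.05) and 7 were lower, with CD14, the LPS co-receptor (-1.96), the NF-κB subunit NFKB2 (-1.51), LY96, the TLR4 partner MD-2 (-1.51), and TLR4 itself (-1.13). The stimulated counts of both lists are near the shares of all genes, whereas 7 of 12 and 4 of 11 lower in vehicle are above the 12% of all genes. List medians of KO minus WT were 0.14 in stimulated and -0.04 in vehicle cells for the first list, and 0.01 and -0.82 for the second.

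Of 21 other interferon-induced genes, 2 were higher and 2 lower in KO stimulated cells (median 0.06), which is near the 12.2% and 10.4% of all genes. In KO vehicle cells 1 was higher and 13 were lower (median -0.80), against 11.4% and 12% of all genes. Among the 13, the largest differences were those of the antiviral genes IFI44L (-3.59), OASL (-3.20), IFIT2 (-2.92) and IFIT3 (-2.36), and the 1 higher gene was GBP5, a guanylate-binding protein (1.34). In stimulated cells CIITA, the master regulator of MHC class II genes (1.76), and the Fcγ receptor gene FCGR1A (0.65) were higher, and IFIT1 (-1.37) and IFIT2 (-1.31) were lower.

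Chemokines of the same CXC family that act on other receptors were mostly lower in KO cells under both treatments. Of 11 tested, 8 were lower and none was higher in KO stimulated cells (median -1.24), and 9 were lower and none higher in KO vehicle cells (median -2.93), against 10.4% of all genes lower in stimulated and 12% in vehicle cells; at an unadjusted p below 0.05, too, 0 were higher in either. The neutrophil attractant CXCL8 had differences of -1.75 ± 0.39 in stimulated and -3.43 ± 0.39 in vehicle cells (SE), and CXCL1, which acts on the same receptor, -0.82 ± 0.24 and -3.49 ± 0.24. In stimulated cells the largest differences were those of PPBP (-2.64), CXCL3 (-1.81), CXCL12 (-1.77) and CXCL8. Beside these, CXCL10 and CXCL11 had 0.33 and 0.21 in stimulated cells and -2.99 and -2.31 in vehicle cells, and CXCL9 had 0.98 and -0.75. That contrast between the lists was not tested.

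**Figure D5:**
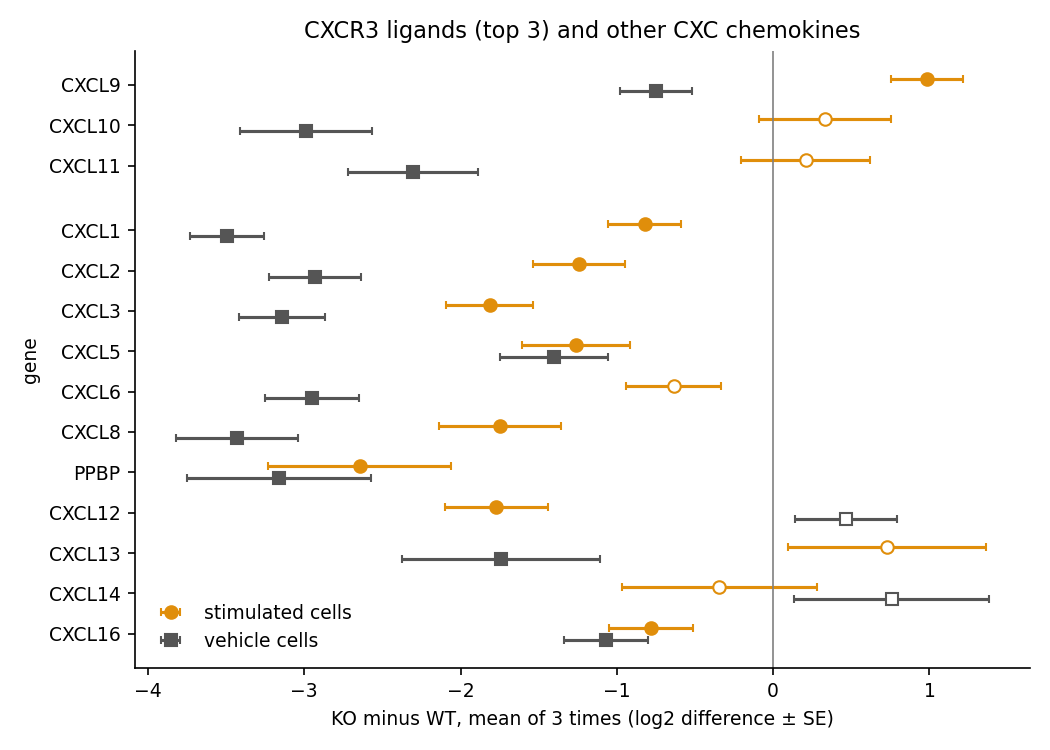
KO minus WT difference (horizontal axis, log2, mean of 3 times ± SE from limma) in stimulated (orange circles) and vehicle cells (grey squares) for the 3 CXCR3 ligands and 11 other CXC chemokines; filled symbols passed an adjusted p of 0.05. CXCL9 is called higher in stimulated cells at 0.98, while 8 of the 11 other chemokines are called lower there.

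For the 6 genes next to the ligands on chromosome 4, limma called no genotype difference in stimulated cells, in vehicle cells or for the difference of responses (means over the times), and 1, 0 and 0 of the 6 had an unadjusted p below 0.05. In GENCODE 29, ART3, an ADP-ribosyltransferase family gene on the opposite strand, spans the whole of CXCL10 and CXCL11 and none of CXCL9, and its exons share 0 bases with exons of the ligands. Whether counting used the strand is not given in the sources used here, so reads of ART3 introns and of CXCL10 or CXCL11 cannot be told apart by position alone. ART3 was at 2.19 to 5.93 in KO stimulated and 2.29 to 5.95 in WT stimulated libraries, against 0.43 to 1.43 in KO vehicle and 0.37 to 1.20 in WT vehicle libraries. Its rise shrank with time, with log2 changes of 4.90, 2.95 and 1.76 at 6, 12 and 24 h in KO cells and 4.40, 2.93 and 1.75 in WT cells. SCARB2, a lysosomal membrane protein whose gene lies past CXCL11 and NUP54, rose in 5 of 6 comparisons by at most 1.27, and was not called in WT cells at 6 h (0.29). NAAA, a lysosomal amidase, was called in none (0.86 in KO and 0.43 in WT cells at 6 h). PPEF2, a phosphatase gene, rose at 12 h in KO (2.34) and WT cells (2.05) and at 24 h in WT cells (2.48). NUP54, a nuclear pore subunit, fell in WT cells at 24 h (-0.60). SDAD1, a ribosome assembly factor, rose in WT cells at 6 h (0.52), and its gene is next to CXCL9, at the opposite end of the cluster from NUP54 and SCARB2.

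The genes whose pattern over the 12 group means was most like that of each ligand were found by the root mean square difference after centring each gene on its own mean. CXCL10 and CXCL11 were the closest pair (0.60 log2 units). The next for CXCL10 were CCL8 (0.94), CCR7 (1.41), CXCL9 (1.42) and TNFAIP6 (1.48), and for CXCL11 CCL8 (0.77), CCR7 (0.99), TNFAIP6 (1.12) and CCL19 (1.21). CXCL9 had CXCL10 (1.42), CXCL11 (1.72), CCL8 (1.95), CCR7 (2.22) and CCL19 (2.50). CCL8, a CC chemokine that attracts monocytes, was lower in KO than in WT cells, with differences of -1.85 ± 0.44 in stimulated and -2.60 ± 0.44 in vehicle cells (SE; adjusted p = 0.00280 and 4.86e-05). CXCL10 and CXCL11 were not called in stimulated cells. The likeness is measured over the same 36 libraries, in which all of these genes rose with stimulation.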

How the data were processed

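RNA was sequenced from 36 libraries of PMA-differentiated THP-1 cells, 3 in each of 12 groups. Per the submitters' processing notes, cutadapt 1.9.1, GSNAP and GRCh37.p5 were used. Deposited were log2 values per Entrez gene, whose normalization is not given in the sources used here; the matching value ladders of all columns are described with the results. Depth per library is unknown, so no counting intervals are given. Symbols came from RefSeq (GRCh38.p14), which matched 20609 of 21599 rows. Genes at or above log2(10) in at least 3 libraries (21232) were fitted with limma 3.58.1 in R 4.3.3: 12 group means, empirical Bayes with a mean-variance trend, Benjamini-Hochberg adjustment over all genes within each comparison, called below 0.05. The fit was tested on simulated data. Pairs of ligands were compared with exact permutation tests (Python 3.11.15).

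Members and gene lists were chosen with earlier results of these data known. In each list the text names up to 4 called genes with the largest change, the ligands and ACOD1 throughout, every genomic neighbour, and the 5 nearest profiles of each ligand; GBP5, ITGAM and the stimulated value of CXCL1 fall outside this rule and were chosen after their values were seen. Like-numbered replicates deviated together (every pair's correlation over 0.1) in 12 of 16 comparisons of 2 groups, with correlations of -0.15 to 0.59. Alternatives were quantile normalization, a pseudocount of 5, no filter, robust empirical Bayes, median centring, no trend, only the libraries compared, a replicate block, each library left out and, chosen after seeing the data, replicates 1 and 3 only. On the lists, ACKR1, PF4, PF4V1, PADI4, CXCL17, CD3E, CD8B, MS4A1, EPCAM and HBB were not analysed here.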

Additional observations from a re-analysis of the deposited data

Results flagged for a closer look

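The response to stimulation differed between KO and WT cells, as the mean over the 3 times in the limma test of that difference, for the 3 ligands and for several genes named beside them. The KO minus WT difference of the log2 response was 1.73 for CXCL9, 3.32 for CXCL10 and 2.51 for CXCL11, and 2.28 for their receptor CXCR3. Among the other CXC chemokines it was 2.67 for CXCL1, 2.31 for CXCL6 and 1.69 for CXCL2, and -2.24 for CXCL12. Each value also holds the genotype difference in vehicle cells. KO vehicle means at 12 h were near the floor for CXCL1 (1.17), CXCL6 (0.71) and CXCL2 (0.66). None of these other CXC chemokines was called higher in KO than in WT stimulated cells, so their larger responses do not stand for higher stimulated levels. CXCL9, in contrast, was called higher in KO stimulated cells (0.98 over the times). Among interferon-induced genes the difference of responses was 3.47 for IFI44L, 2.70 for CIITA, 2.58 for MX1 and 2.49 for OASL. In the signalling lists it was 1.81 for CD14, 1.65 for NFKB2, 1.42 for RELB, 0.70 for MYD88, 1.15 for IRF9 and 0.94 for TYK2. ACOD1, the targeted gene, had -2.22. Of the lists, 7 of 21 interferon-induced genes, 4 of 11 other CXC chemokines and 4 of 12 TLR4 and NF-κB genes were called higher for this difference, beside 3.32% of all genes. So were 2 of 11 type I interferon genes, 2 of 10 macrophage markers and 1 of 9 receptors and binding partners, and by limma 0 of 11 interferon-gamma signalling genes, 0 of 7 decay factors, 0 of 7 markers of other cell types and 0 of 6 genomic neighbours (3, 1, 2 and 0 at an unadjusted p below 0.05). Groups of 3 libraries were too small for the test of single outlying libraries.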

How the results depend on the processing

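Of 1335 values recomputed for 72 results, 1241 kept their direction and their side of the threshold, 35 lost a call, 22 gained one, and 37 changed sign, all of them uncalled before and after; all 270 recomputed responses to stimulation were still called higher. No call of these results changed without the filter, with no trend or with robust empirical Bayes. Quantile normalization and median centring could move little, since the columns already share nearly the same values; quantile normalization turned CXCL9 at 24 against 6 h in KO vehicle cells to 0.0047. A pseudocount of 5 ended the vehicle calls of CXCL9 at 12 h (-0.35) and over the times (-0.18), of CXCL10 and CXCL11 at 24 h (-1.26 and -0.90) and the CXCL11 difference of responses (1.09); it made CXCL9 called in stimulated cells at 12 h (1.05) and for the difference of responses at 6 h (1.58), and it turned CXCL10 at 24 against 6 h in KO vehicle cells to 0.028. With only the libraries compared, calls ended for CXCL10 in vehicle at 6, 12 and 24 h (-3.29, -2.90 and -2.78) and for CXCL9 in vehicle at 12 h (-1.47) and in stimulated cells at 6 h (1.47), with fewer residual degrees of freedom. With the replicate block, the difference of responses was called for CXCL10 at 6 h (3.74) and CXCL9 at 12 h (2.51), the CXCL9 minus CXCL10 difference was not (0.65), and no other call changed. With replicates 1 and 3 only, chosen after seeing the data, CXCL11 was called in vehicle at 6 and 12 h (-1.95 and -2.24) and CXCL9 in stimulated cells at 12 h (1.22); CXCL9 was not in vehicle at 12 h (-1.13) or over the times (-0.57). The difference of responses was then called at 6 and 24 h for CXCL10 (4.38 and 3.55) and CXCL11 (2.85 and 3.11) and at 12 h for CXCL9 (2.35), as was CXCL9 minus CXCL11 (0.83). Uncalled values that changed sign with replicates 1 and 3 only were those of CXCL10 and CXCL11 in stimulated cells at 12 h (-0.034 and -0.12), CXCL10 minus CXCL11 (-0.032), CXCL9 at 24 against 6 h in WT vehicle cells (0.37) and the KO minus WT difference of CXCL10 at 24 against 6 h (-0.42).

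Leaving out each library in turn changed calls of these results, within these ranges. In vehicle, CXCL9 at 12 h ranged from -1.72 to -1.10, CXCL10 at 12 h from -3.95 to -2.26 and at 24 h from -3.57 to -2.34, and CXCL11 from -2.73 to -1.61 at 6 h, -2.92 to -1.56 at 12 h and -2.92 to -2.28 at 24 h. In stimulated cells CXCL9 at 6 h ranged from 1.20 to 1.87, CXCL9 minus CXCL10 from 0.55 to 0.76 and CXCL9 minus CXCL11 from 0.63 to 1.02. The difference of responses ranged from 1.61 to 2.37 for CXCL9 at 6 h, 2.15 to 2.76 for CXCL9 at 12 h and 2.34 to 4.03 for CXCL10 at 12 h. Uncalled results that took either sign were CXCL10 in stimulated cells at 12 h (-0.032 to 0.17), CXCL11 in stimulated cells at 6 h (-0.086 to 0.96), 12 h (-0.40 to 0.41) and 24 h (-0.34 to 0.99), CXCL9 in vehicle at 24 h (-0.57 to 0.25) and CXCL10 minus CXCL11 (-0.12 to 0.30). So did the 24 against 6 h change of CXCL9 in KO (-0.11 to 0.079) and WT vehicle cells (-0.76 to 0.13), of CXCL10 in KO vehicle cells (-0.85 to 0.44) and of CXCL11 in WT vehicle cells (-0.49 to 0.63), and its KO minus WT difference in stimulated cells for CXCL10 (-0.40 to 0.26) and CXCL11 (-0.77 to 0.69). The cause of these changes was not tested. Depth is unknown. The floor limits what vehicle values of CXCL9, and KO vehicle values of CXCL10 and CXCL11, can show. The ceiling limits stimulated values of CXCL9.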

Other observations

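Genes of type I interferon signalling and factors that control transcript decay were also compared, and their counts are near the shares of all genes called, which were 12.2% higher and 10.4% lower in stimulated and 11.4% higher and 12% lower in vehicle cells. Of 11 type I interferon genes, 1 was higher and 1 lower in KO than in WT stimulated cells, TYK2, a kinase of the interferon receptor (0.81), and TBK1, a kinase upstream of IRF3 (-0.50). In vehicle cells none was higher by limma (0 at an unadjusted p below 0.05) and 2 were lower, the transcription factors IRF9 (-1.12) and IRF7 (adjusted p = 0.0144 by limma). Of 7 decay factors, ELAVL1, an RNA-binding protein that stabilises transcripts, was higher in KO stimulated cells (0.33), and ZC3H12A, a ribonuclease that degrades inflammatory transcripts, was lower in KO vehicle cells (-0.50). At an unadjusted p below 0.05 by limma, 4 of the 7 were higher and 0 lower in KO stimulated cells. Of all 21232 genes, 3925 were higher and 3412 lower in that way. The median difference in stimulated cells was 0.25 for this list and 0.02 over all genes.

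Among the marker lists, 5 of 10 macrophage markers were lower in KO than in WT stimulated cells, with LYZ, the lysozyme gene, furthest (-2.84), and in vehicle 5 were lower and 1 was higher (ITGAM, 0.59). Of 7 markers of other cell types, 4 were lower in KO stimulated cells, with COL1A1, a collagen gene, furthest (-2.87), and in vehicle 5 were lower and 1 was higher (GP9, 1.33). Of all genes, 10.4% were lower in KO stimulated and 12% in KO vehicle cells.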
